A study of Mus musculus with 15 samples.

Results

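The genes described here are 9 markers of hippocampal neurons, Lct, Tdo2, Dsp, Prox1, C1ql2, Wfs1, Fibcd1, Cabp7 and Zbtb20. They were taken from the deposited count table by their mouse gene symbols. All 9 were found among the 46078 genes of the table, and all 9 passed the filter on low counts that kept 18974 genes for testing. Prox1, Dsp, C1ql2, Tdo2 and Lct are treated below as markers of the granule cells of the dentate gyrus, Wfs1 and Fibcd1 as markers of CA1, and Cabp7 and Zbtb20 as genes of several hippocampal fields.

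The hippocampus is the brain structure in which new episodic and spatial memories are formed, and it is among the first to suffer in Alzheimer's disease. Granule cells of the dentate gyrus receive input from the entorhinal cortex and send mossy fibres to CA3, whose pyramidal cells project to CA1, the main output field. Each field keeps a transcript signature of its own, so that in a piece of brain the level of such genes depends both on how much of the field was dissected and on how strongly its cells express them.

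Messenger RNA was sequenced from 15 mice, each sampled in a region of 1 brain hemisphere, the identity of that region being not given in the sources used here. They formed 3 groups of 5: APP-PS1 mice treated with anti-CD8a antibody, APP-PS1 mice given PBS, and PBS-treated mice of wild type (WT). APP-PS1 mice, called transgenic below, model amyloid deposition through transgenes for Mo/HuAPP695swe, an amyloid precursor protein of mixed mouse and human sequence, and for PS1-dE9, a mutated human presenilin. The prion protein promoter drives both in neurons of the central nervous system. The mice, of both sexes, were 12 months old at treatment. By the labels the sexes were unevenly spread: WT replicate 5 was the only male WT mouse, while males outnumbered females in each APP-PS1 group. The antibody, which targets a co-receptor of cytotoxic T cells, was given in 10 injections of 0.8 mg over 4 weeks. The PBS groups received 10 injections of 100 µL of PBS over the same 4 weeks. The antibody is therefore set against PBS, not against an isotype antibody. The study asked how removing CD8 T cells bears on neuronal gene expression in this model.

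Libraries held 17736524 to 36485809 counts in genes. App was at 2420 to 3170 counts scaled to the library's size (CPM) in the 10 APP-PS1 libraries, against 1227 to 1317 CPM in WT libraries. Ttr, the leading choroid plexus transcript, exceeded 1000 CPM in 5 libraries (anti-CD8a replicate 1, APP-PS1 PBS replicates 2 and 5, and WT replicates 3 and 5). Several of the marker medians, but not all, are therefore given below with and without these. Xist was at 1932 CPM in APP-PS1 PBS replicate 1, a library labelled male. Its sex read from the genes was female, against the label. The main model kept the labelled sex, and sex read from the genes was an alternative. All 9 hippocampal markers were detected in every library, with Tdo2 the lowest at 3.66 CPM, which is above the 0.0822 to 0.169 CPM that 3 counts stand for at these depths (counting error only).

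The promoters of 4 dentate markers that varied together across libraries are shown first, so that their sequences can be set beside their values. Each is a window of 300 bases in RefSeq's annotation of build GRCm38.p6, from 250 bases before the gene's start to 50 after it, read 5′ to 3′ on the gene's strand. Dsp lies on the plus strand and the other 3 on the minus strand. RefSeq's start of Tdo2 lies inside the longer GENCODE M21 model of that gene. The windows are chr1:128328269-128328568 for Lct, chr3:81975679-81975978 for Tdo2, chr13:38151044-38151343 for Dsp and chr1:190170778-190171077 for the first of the 2 RefSeq windows of Prox1. Capitals mark matches, on either strand, to 6 motifs: TGACG (the core of CREB sites), the E-boxes CAGATG and CAGCTG, the AP-1 site TGANTCA, the TATA box TATAAA and the GC box GGGCGG.
Lct: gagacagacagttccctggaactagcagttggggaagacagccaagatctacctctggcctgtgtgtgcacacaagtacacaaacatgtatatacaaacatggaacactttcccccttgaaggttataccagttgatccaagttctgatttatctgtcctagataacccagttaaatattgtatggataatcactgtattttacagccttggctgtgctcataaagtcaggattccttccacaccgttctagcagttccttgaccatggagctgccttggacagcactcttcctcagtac
Tdo2: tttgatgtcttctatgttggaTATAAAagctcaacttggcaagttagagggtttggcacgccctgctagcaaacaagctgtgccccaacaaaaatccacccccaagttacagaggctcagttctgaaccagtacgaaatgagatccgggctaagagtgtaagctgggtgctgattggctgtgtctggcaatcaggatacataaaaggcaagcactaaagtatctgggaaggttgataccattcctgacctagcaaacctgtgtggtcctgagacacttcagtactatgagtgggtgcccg
Dsp: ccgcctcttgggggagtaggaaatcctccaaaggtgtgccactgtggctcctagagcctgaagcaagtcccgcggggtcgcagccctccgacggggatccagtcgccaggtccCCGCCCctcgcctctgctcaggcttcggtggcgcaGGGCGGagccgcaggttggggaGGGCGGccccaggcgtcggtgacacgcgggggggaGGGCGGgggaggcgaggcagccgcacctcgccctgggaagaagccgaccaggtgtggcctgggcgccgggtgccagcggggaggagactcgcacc
Prox1: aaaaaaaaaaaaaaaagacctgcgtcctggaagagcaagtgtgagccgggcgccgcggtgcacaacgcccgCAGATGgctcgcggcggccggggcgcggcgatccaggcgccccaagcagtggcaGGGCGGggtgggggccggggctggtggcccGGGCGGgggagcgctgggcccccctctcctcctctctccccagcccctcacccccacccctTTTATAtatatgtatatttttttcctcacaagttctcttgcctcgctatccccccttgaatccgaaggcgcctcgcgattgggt

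No motif was matched in all 4 windows. None of the 6 motifs was found in the Lct window. The Tdo2 window held 1 TATAAA, a motif in 13.6% of the 32851 promoter windows of the table. Dsp had 4 matches to GGGCGG, which is in 35.7% of windows. Prox1 had 2 matches to GGGCGG, 1 to TATAAA and 1 to CAGATG, and CAGATG is in 17.2% of windows. They differed in base composition too, since GC made up 44.7% of the Lct window, 47.7% for Tdo2, 73.0% for Dsp and 64.3% for Prox1, against a median of 52.7% over all windows. TGACG (20.8% of all windows), CAGCTG (16.3%) and TGANTCA (7.81%) were in none of these 4. Of the other members, Fibcd1 had 1 match to TGACG and 2 to GGGCGG, Wfs1 1 to CAGATG and 4 to GGGCGG, Cabp7 4 to GGGCGG, C1ql2 1 to GGGCGG and Zbtb20 none of the 6. A match to these letters is a description of the window only. The Zbtb20 window (chr16:43247034-43247333) lies inside that gene's GENCODE M21 model, which starts at 42875881.

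Levels were compared between genes per kilobase of exon, using GENCODE M21 gene models. Cabp7, which encodes a neuronal calcium-binding protein of the calmodulin superfamily, was the most abundant at 75.9 ± 8.03 CPM per kb (SD, n = 15 libraries). Fibcd1 (24.3 ± 3.87 CPM per kb), Wfs1 (23.4 ± 3.24), Zbtb20 (23.0 ± 3.31) and C1ql2 (20.1 ± 4.50) followed and did not differ from each other beyond their spread. Prox1 was at 14.4 ± 1.96 CPM per kb, Lct at 7.01 ± 1.96, Dsp at 4.40 ± 0.992 and Tdo2 at 1.94 ± 0.513. The ranges of mean ± SD overlapped for the neighbours C1ql2 and Prox1 and for Lct and Dsp, although each pair of means differed by more than either SD. The exon models of Zbtb20 cover 30730 bases over many transcripts, which lowers its value per kb. The markers of low abundance varied most between libraries: the highest library exceeded the lowest 3.18-fold for Tdo2, 2.73-fold for Dsp and 2.55-fold for Lct, against 1.46-fold for Cabp7.

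The first comparison asked what the anti-CD8a antibody changes in APP-PS1 mice. Of the 9, the dentate granule cell markers Tdo2, Lct and Dsp had the largest fold changes relative to PBS-given mice, at 1.41-fold to 1.57-fold, whereas the CA1 markers Wfs1 and Fibcd1 were at 1.05-fold and 1.02-fold. Cabp7 was 1.19-fold higher with little spread. None of the 9 passed an adjusted p of 0.05 in edgeR's quasi-likelihood test, in which 0 of 18974 genes passed (0%, smallest adjusted p = 0.223). At an unadjusted p under 0.05, 5 of 9 members were past it (Lct, Tdo2, Dsp, Cabp7 and Prox1), all higher in treated mice, against 7.59% of all genes in that direction. DESeq2 called 3 of the 9 higher (Lct, Tdo2 and Cabp7) at its adjusted p of 0.05, against 0.507% of the genes it tested. All 9 estimates were higher in treated mice, as were 54.1% of all genes, and the median log2 fold change was 0.25 for the members and 0.02 for all genes tested.

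Gene positions are those of GENCODE M21 on GRCm38. Lct (chr1:128284756-128328318, minus strand) encodes lactase, the milk sugar enzyme of the intestine, and its transcript marks dentate granule cells in the mouse brain. Lct was at 46.5, 34.3, 70.3, 58.9 and 53.9 CPM in the 5 anti-CD8a-treated APP-PS1 mice, against 34.6, 38.6, 37.0, 27.6 and 34.8 CPM in the 5 APP-PS1 mice given PBS. Of the treated mice 4 lay above every PBS-given mouse, and replicate 2 lay among them, so the groups overlapped. The log2 fold change was 0.63 (SE 0.161, 95% interval 0.28 to 0.98, adjusted p = 0.223 in edgeR and 0.0244 in DESeq2). Without anti-CD8a replicate 3, the highest library, it was 0.40. Within the animals numbered from 83 (3 against 3) the difference in log2 CPM was 0.53, and within those numbered from 85 (2 against 2) it was 0.65.

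Tdo2 (chr3:81957090-81976202, minus strand) encodes tryptophan dioxygenase, which opens the kynurenine pathway of tryptophan breakdown and in the brain marks mature granule cells. It was at 6.74, 7.57, 9.89, 11.6 and 9.42 CPM in treated mice and at 5.15, 7.08, 6.81, 3.66 and 6.63 CPM in APP-PS1 mice given PBS. The groups overlapped only in that the lowest treated mouse, replicate 1, lay below PBS replicates 2 and 3. The log2 fold change was 0.65 (SE 0.176, 95% interval 0.26 to 1.03, adjusted p = 0.223 in edgeR and 0.0428 in DESeq2). Without the 5 libraries rich in Ttr it was 0.97, with an adjusted p of 0.117 in edgeR. That fit left out treated replicate 1, the lowest treated mouse, and PBS replicates 2 and 5. It kept PBS replicate 4, the lowest library of all for Tdo2. In each number series the difference was 0.63.

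Dsp (chr13:38151294-38198577, plus strand) encodes desmoplakin, which anchors intermediate filaments to desmosomes in epithelia and is a granule cell marker in the hippocampus. Its level was 48.5, 45.2, 54.3, 44.2 and 40.6 CPM in treated mice, against 34.1, 39.4, 34.6, 23.1 and 36.8 CPM in mice given PBS. Every treated mouse lay above every PBS-given one, which made Dsp the only member whose groups did not overlap. Such separation with the treated group higher was found for 0.933% of all genes. The log2 fold change was 0.49 (SE 0.139, 95% interval 0.19 to 0.80, adjusted p = 0.229 in edgeR and 0.0524 in DESeq2). It was 0.65 within the 83 series and 0.24 within the 85 series.

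Prox1 (chr1:190118035-190170714, minus strand) is the homeodomain factor that sets and keeps granule cell identity. Its level was 126, 116, 143, 133 and 131 CPM in treated mice and 125, 101, 129.9, 89.7 and 106 CPM in PBS-given transgenic mice. PBS replicates 1 and 3 lay within the treated range and the other 3 below it, and the log2 fold change was 0.25 (SE 0.0954, adjusted p = 0.307 in edgeR). Prox1os, an antisense gene whose exons overlap those of Prox1, differed by 0.62 on the log2 scale (SE 0.145, adjusted p = 0.223 in edgeR) at a mean of 3.93 CPM. Since the strand setting of the counting was not given in the sources used here, reads of the pair cannot be told apart. C1ql2 (chr1:120340582-120343174, plus strand), a secreted C1q-like protein of mossy fibre synapses, was at 41.2, 30.8, 39.6, 54.3 and 46.9 CPM in treated mice and 38.9, 30.9, 24.2, 48.8 and 30.4 CPM in mice given PBS. These ranges overlapped over most of their length, and the log2 fold change, 0.28 (SE 0.18; adjusted p = 0.491 by edgeR), was 0.49 without PBS replicate 4 and 0.15 without PBS replicate 3. It was -0.07 within the 83 series and 0.90 within the 85 series.

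**Figure D1:**
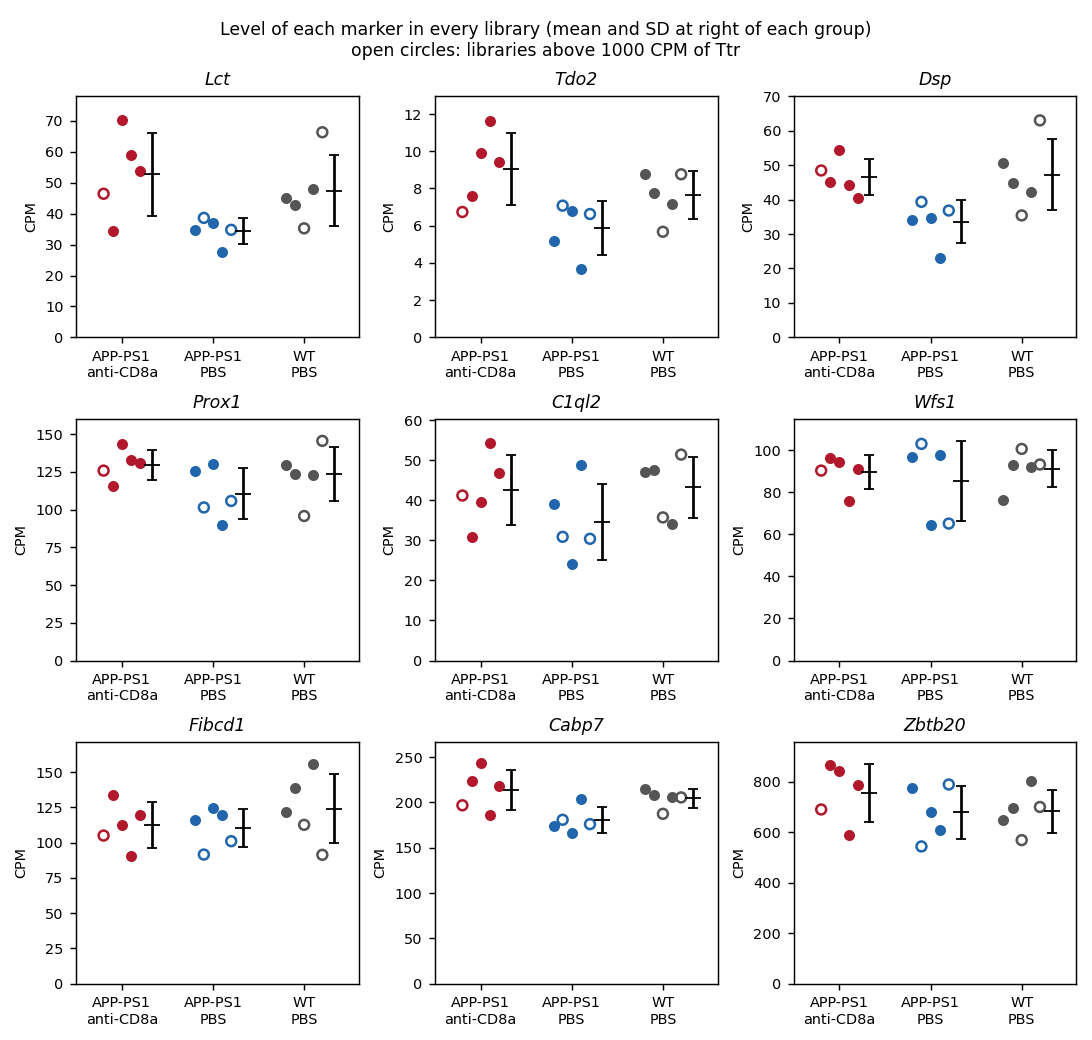
CPM of each of the 9 markers (vertical axes from 0) in every library, by group, with the mean and SD beside the points and open circles for the 5 libraries above 1000 CPM of Ttr. All treated mice lie above all APP-PS1 mice given PBS for Dsp, while these groups overlap for every other marker.

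The CA1 markers had estimates near 0. Wfs1 (chr5:36966104-36989205, minus strand), which encodes wolframin, a membrane protein of the endoplasmic reticulum, was at 90.3, 96.4, 94.6, 75.9 and 91.1 CPM in treated mice and 97.0, 103, 64.3, 97.6 and 65.1 CPM in mice given PBS. The PBS group split into 3 libraries near the top of all 15 and 2 at the bottom (replicates 3 and 5, both numbered from 85). Its log2 fold change was 0.07 (95% interval -0.21 to 0.35, adjusted p = 0.823 in edgeR), with -0.08 within the 83 series and 0.36 within the 85 series. Fibcd1 (chr2:31813290-31846005, minus strand), a transmembrane receptor with a fibrinogen-like domain, was at 105, 134, 113, 90.3 and 119.9 CPM in treated mice and 116, 91.5, 124, 119.7 and 101 CPM in mice given PBS, ranges that lay over each other. Its log2 fold change was 0.02 (95% interval -0.24 to 0.28, adjusted p = 0.950 in edgeR), and its sign turned without the libraries rich in Ttr (-0.11). Both intervals leave room for changes of about the size estimated for Prox1.

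Cabp7 (chr11:4736892-4746778, minus strand) was at 197, 224, 243, 187 and 218 CPM in treated mice and 174, 181, 166, 204 and 176 CPM in APP-PS1 mice given PBS. The groups overlapped through PBS replicate 4, which lay above treated replicates 1 and 4. Cabp7 had the smallest standard error of the 9, at a log2 fold change of 0.25 (SE 0.0625, 95% interval 0.11 to 0.39, adjusted p = 0.223 in edgeR and 0.0360 in DESeq2). The differences within the number series were 0.25 (83) and 0.24 (85). Its exons overlap those of Zmat5 on the opposite strand, which had a mean of 10.5 CPM and a log2 fold change of 0.19. Zbtb20 (chr16:42875881-43642602, plus strand), a zinc finger repressor that specifies hippocampal pyramidal cells and is also expressed in astrocytes, was at 689.9, 868, 842, 589.9 and 786 CPM in treated mice and 774, 544, 678, 607 and 789 CPM in mice given PBS. The Zbtb20 ranges overlapped, and the log2 fold change was 0.16 (SE 0.117, adjusted p = 0.560 in edgeR).

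In whole tissue, fewer cells of a type and less RNA per cell cannot be told apart, and neither can the amount of a field in the dissected piece. Markers of neighbouring tissue varied between libraries beside these results. The summed level of 14 choroid plexus markers was 68.6 to 2181 CPM in treated mice, 84.9 to 4863 CPM in PBS-given transgenic mice and 84.1 to 7563 CPM in WT mice. For 8 cerebellar markers the sums were 14.1 to 69.4 CPM in treated mice, 23.7 to 71.5 CPM in mice given PBS and 15.7 to 81.2 CPM in WT mice, and all 6 tested were lower in treated than in PBS-given transgenic mice (median log2 fold change -1.02, none past the edgeR test). This cerebellar median was -0.46 without the libraries rich in Ttr. The sums of 8 thalamic markers were 97.6 to 489.6 CPM in treated mice, 113 to 251 CPM in mice given PBS and 87.3 to 143 CPM in WT mice, and 9 markers of cortical layers summed to 259.6 to 324 CPM in treated mice, 267 to 298 CPM in mice given PBS and 266 to 306 CPM in WT mice. The thalamic sum of 489.6 CPM was that of anti-CD8a replicate 4 alone, and the other treated mice had 97.6 to 130.5 CPM. The highest cerebellar sum of treated mice came from the same library. Most of that sum was Zic1, at 61.9 CPM, while Car8, the next most abundant cerebellar marker, reached at most 6.57 CPM in treated mice. No gene of these 4 lists was at 0 in every library. The part of these tissues in the marker differences was not tested. Without the libraries rich in Ttr, the median log2 fold change of the 5 dentate markers between treated and PBS-given mice was 0.60, against 0.49 with them, and that of the CA1 pair was -0.05, against 0.05 with them.

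The second comparison set transgenic mice against WT mice, both given PBS. Here dentate markers had the lowest fold changes of the 9, since Dsp was at 0.675-fold, Lct at 0.679-fold and Tdo2 at 0.718-fold of WT. The CA1 markers and Zbtb20 stayed within 0.941-fold and 1.03-fold. None of the 9 members passed the edgeR test, against 1.03% of all genes (178 higher and 17 lower, or 134 higher and 119 lower without APP-PS1 PBS replicate 4). At an unadjusted p under 0.05, 4 members were past it, all lower (Dsp, Lct, Tdo2 and Prox1), against 6.02% of all genes in that direction. Without WT replicate 5 Dsp alone was past it (unadjusted p = 0.0226 in edgeR), and with sex read from the genes the 4 were Dsp, Lct, Tdo2 and Cabp7. DESeq2 called 2, Dsp and Lct, as lower, against 0.436% of genes. Estimates were lower for 8 of 9 members, as for 53.1% of all genes, with a median log2 fold change of -0.24 for the members and -0.01 for all genes. The APP-PS1 mice given PBS enter this comparison and the previous one, with opposite signs, so the values of each are given side by side and are not independent of each other.

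Dsp averaged 33.6 ± 6.24 CPM in APP-PS1 mice and 47.3 ± 10.4 CPM in WT mice (SD, n = 5 each). The WT mice had 50.7, 44.9, 35.4, 42.3 and 63.0 CPM, so that 4 lay above all APP-PS1 mice given PBS and replicate 3 among them. The log2 fold change was -0.57 (SE 0.146, 95% interval -0.89 to -0.25, adjusted p = 0.0912 in edgeR and 0.0142 in DESeq2). Lct averaged 34.5 ± 4.23 CPM in APP-PS1 mice and 47.5 ± 11.5 CPM in WT mice, of which single animals had 44.9, 43.0, 35.3, 47.9 and 66.4 CPM. Again 4 WT mice exceeded all PBS-given transgenic mice, and replicate 3 did not. The log2 fold change of Lct was -0.56 (SE 0.168, 95% interval -0.93 to -0.19, adjusted p = 0.182 in edgeR and 0.0498 in DESeq2).

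Tdo2 averaged 5.87 ± 1.44 CPM in APP-PS1 mice and 7.62 ± 1.29 CPM in WT mice, where the 5 animals had 8.77, 7.76, 5.67, 7.16 and 8.76 CPM. All but WT replicate 3 exceeded every APP-PS1 mouse given PBS, and the log2 fold change was -0.48 (SE 0.189, adjusted p = 0.344 in edgeR). Without the libraries rich in Ttr it was -0.91, and without APP-PS1 PBS replicate 4 it was -0.31. The first of these fits left out WT replicate 3, the lowest WT mouse, WT replicate 5 and APP-PS1 PBS replicates 2 and 5. Prox1 differed by -0.24 on the log2 scale (SE 0.101, adjusted p = 0.380 in edgeR), with WT values of 129.5, 124, 95.7, 123 and 146 CPM that overlapped those of the APP-PS1 mice. C1ql2 had one of -0.35 (SE 0.185, adjusted p = 0.491 in edgeR), with 47.0, 47.5, 35.7, 34.2 and 51.4 CPM in WT mice. The C1ql2 value was -0.63 without APP-PS1 PBS replicate 4, and -0.22 without the libraries rich in Ttr.

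Wfs1 was at 76.5, 93.2, 101, 92.0 and 93.2 CPM in WT mice, within the wider range of the APP-PS1 mice given PBS, and its log2 fold change was -0.09 (95% interval -0.39 to 0.21). Fibcd1 had 122, 139, 113, 155 and 91.3 CPM in WT mice and a log2 fold change of -0.07 (95% interval -0.35 to 0.21). Cabp7 had 215, 208, 188, 207 and 206 CPM in WT mice, of which 4 lay above all PBS-given transgenic mice, and its log2 fold change was -0.13 (SE 0.0659, adjusted p = 0.455 in edgeR). It was -0.08 without WT replicate 5 and -0.06 without the libraries rich in Ttr. Zbtb20 had 648, 696, 568, 801 and 699.8 CPM in WT mice and a log2 fold change of 0.04 (95% interval -0.23 to 0.31). No member's groups were separate in this comparison, while 0.907% of all genes were separate with APP-PS1 lower and 1.88% with APP-PS1 higher.

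Calls in this comparison depended on libraries. Without anti-CD8a replicate 3, which is in neither group but enters the joint model, edgeR called Lct (adjusted p = 0.00550) and Dsp (adjusted p = 0.0387). Of the 19188 genes tested in that fit, edgeR called 28 lower and 191 higher. Without WT replicate 3 it called Dsp alone (adjusted p = 0.0484). With the 2 groups fitted alone both passed again (adjusted p = 0.0178 for Lct and 0.0460 for Dsp in edgeR). Of the 18371 genes tested there, 18 were called lower and 168 higher. Without WT replicate 5, in contrast, the log2 fold change was -0.40 for Dsp (adjusted p = 0.382 in edgeR) and -0.39 for Lct (adjusted p = 0.499). WT replicate 5 was the only WT mouse labelled male and had the most Ttr of all libraries, at 6500 CPM. Within the number series, the APP-PS1 minus WT differences in log2 CPM for animals numbered from 83 (3 against 3) and from 85 (2 against 2) were -0.46 and -0.53 for Dsp, -0.29 and -0.65 for Lct, and -0.51 and -0.24 for Tdo2.

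The third comparison set anti-CD8a-treated APP-PS1 mice against WT mice given PBS. No member passed the edgeR test, against 1.94% of all genes, and none had an unadjusted p under 0.05, against 6.81% of genes higher and 5.29% lower in treated mice. Without anti-CD8a replicate 4 that count was 2 (Cabp7 and Zbtb20, both higher). Log2 fold changes ran from -0.07 for Dsp to 0.20 for Zbtb20, with a median of 0.01. Dsp averaged 46.6 ± 5.17 CPM in treated mice and 47.3 ± 10.4 CPM in WT mice, and the 95% interval of its log2 fold change was -0.39 to 0.24. For Lct the log2 fold change was 0.07 (-0.29 to 0.43), for Tdo2 0.17 (-0.23 to 0.57) and for Prox1 0.01 (-0.21 to 0.23), each with its 95% interval. All 4 intervals hold values of both signs.

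**Figure D2:**
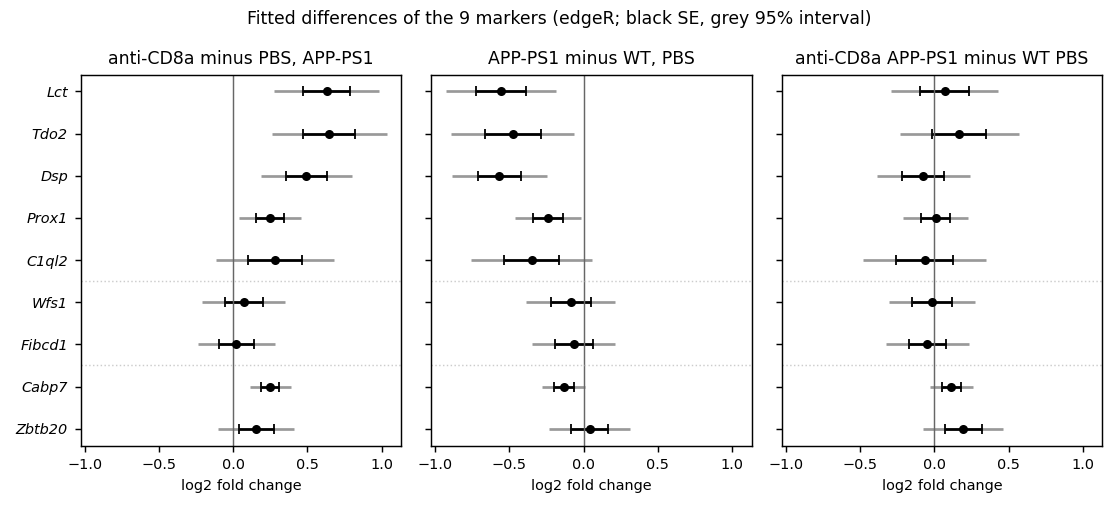
Log2 fold changes of the 9 markers in the 3 comparisons (horizontal axes, edgeR), with the SE in black and the 95% interval in grey; dotted lines divide dentate markers, CA1 markers, and Cabp7 with Zbtb20. Lct, Tdo2 and Dsp lie at 0.49 to 0.65 for treated against PBS-given transgenic mice and at -0.57 to -0.48 for APP-PS1 against WT mice.

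Across the 15 libraries 4 of the dentate markers varied together. The log2 CPM of Lct, Tdo2, Dsp and Prox1 correlated in all 6 pairs, with Pearson's r of 0.75 to 0.83 (permutation p adjusted over the 36 pairs of members from 0.00198 to 0.00798, n = 15). The strongest pair was Lct with Tdo2 (r = 0.83, unadjusted permutation p = 7e-05; Spearman's rho = 0.79, unadjusted p = 0.00073). By Spearman's rho 5 of the 6 pairs passed, and Prox1 with Dsp did not (rho = 0.60, permutation p = 0.0195, adjusted p = 0.100). Leaving out the 2 libraries farthest from the median of the first gene gave r of 0.51 to 0.78. With each library's deviation taken from its own group's mean, r was 0.64 to 0.74, with no p computed. Permutations moved libraries freely between groups, so the p values above also take in differences between groups. Within the 9 libraries of the 83 series r was 0.75 to 0.96 for these pairs, and within the 6 of the 85 series 0.44 to 0.85. APP-PS1 PBS replicate 4 was the lowest of all 15 for each of these 4 genes, whereas the highest was anti-CD8a replicate 3 for Lct, anti-CD8a replicate 4 for Tdo2, and WT replicate 5 for Dsp and Prox1. Without that PBS library, the treated minus PBS log2 fold changes in APP-PS1 mice were 0.59 for Lct, 0.52 for Tdo2, 0.39 for Dsp and 0.20 for Prox1.

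C1ql2, the fifth dentate marker, had an r of 0.24 to 0.44 with the other 4 over all libraries, and no pair passed after adjustment. Its r with them was -0.18 to 0.15 within the 83 series, and 0.57 to 0.92 within the 6 libraries of the 85 series. APP-PS1 PBS replicate 4, lowest for the others, had the third highest C1ql2 of all libraries at 48.8 CPM. Between dentate and CA1 markers r ran from -0.26 to 0.27, and the CA1 pair Wfs1 and Fibcd1 had r of 0.09 (permutation p = 0.745, adjusted p = 0.838). Cabp7 had r of 0.30 to 0.47 with all 8 other members, none past the adjusted threshold. With deviations taken from each group's mean, its r was -0.19 to 0.17 with the dentate markers. On that measure its r was 0.35 to 0.38 with Wfs1, Fibcd1 and Zbtb20. Differences between these correlations were not tested.

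**Figure D3:**
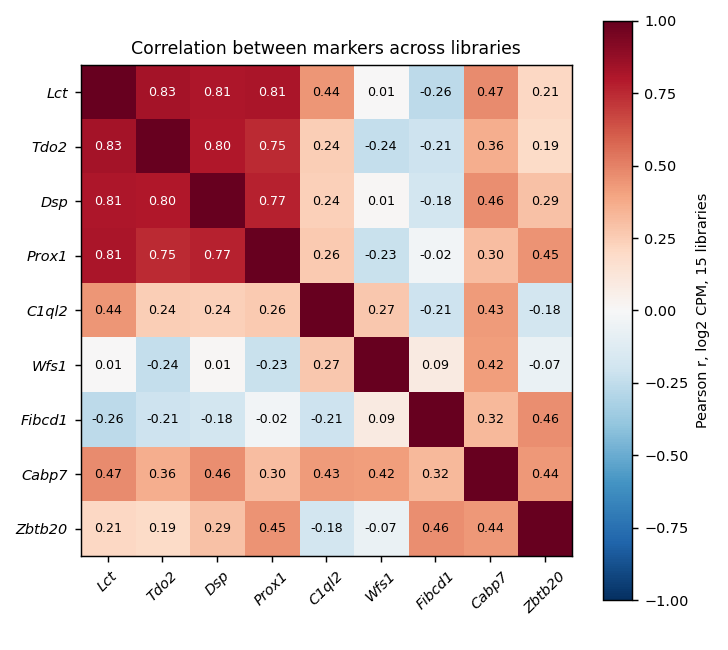
Pearson's r between the log2 CPM of each pair of markers over the 15 libraries (colour from -1 to 1, r printed in each cell). The block of Lct, Tdo2, Dsp and Prox1 lies at 0.75 to 0.83, and pairs of a dentate and a CA1 marker at -0.26 to 0.27.

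Further genes of dentate granule cells had a smaller median. Of 9 further dentate granule markers, all tested, 6 had a higher estimate in treated than in PBS-given transgenic mice and none passed the edgeR test, with a median log2 fold change of 0.09. Those of smallest p were Glis3 (0.25), a zinc finger factor, Plk5 (0.36), a member of the polo-like kinase family, Rfx3 (0.16) and Stxbp6 (0.16). Calb1, which encodes the calcium buffer calbindin, was at -0.13. All 9 had a lower estimate in APP-PS1 than in WT mice given PBS, with a median of -0.12, and none passed. The median of the 5 dentate members in these comparisons was 0.49 and -0.48. With the libraries rich in Ttr left out, the medians were 0.60 and -0.60 for the dentate members, and 0.02 and -0.14 for the further 9.

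Further markers of CA1, of CA2 and CA3, of all neurons and of cortical layers gave medians of 0.001 to 0.07 between treated and PBS-given transgenic mice. Of 6 more CA1 markers 3 were higher in treated than in PBS-given transgenic mice, with Ccn3 (also named Nov), a secreted matrix protein, at -0.46 (SE 0.167) and Pou3f1, a POU domain factor, at 0.24 (SE 0.102). Of 10 markers of CA2 and CA3, 7 were higher, with a median of 0.07, led by Bok (0.27), a relative of the Bcl-2 family, Rgs14 (0.27), a regulator of G protein signalling in CA2, and Iyd (0.37), while Amigo2 was at -0.22. Between transgenic and WT mice given PBS the medians were -0.04 for CA1 and -0.10 for CA2 and CA3. They were -0.12 and 0.002 without the libraries rich in Ttr. Of 7 genes expressed in all neurons 4 were higher in treated mice, with a median of 0.01 and Rbfox3, the antigen NeuN, at 0.21. Between transgenic and WT mice given PBS, Rbfox3 was at -0.22, and the median of these 7 was 0.003, with 4 higher and 3 lower. For 9 markers of cortical layers the median was 0.05, with 6 higher. No gene of these lists passed the edgeR test or was called by DESeq2 in either comparison.

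**Figure D4:**
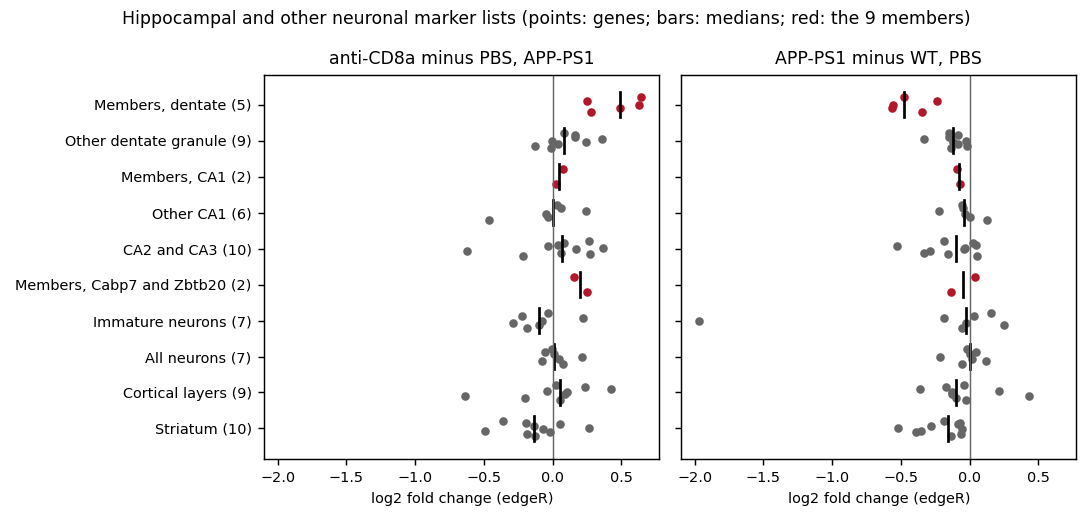
Log2 fold changes (horizontal axes, edgeR) of the 9 members in red and of further marker lists in grey, 1 point per gene with a bar at each list's median, for treated against PBS-given transgenic mice (left) and APP-PS1 against WT mice given PBS (right). The dentate members have medians of 0.49 and -0.48, and the further dentate genes 0.09 and -0.12.

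Genes whose variation within groups was most like the mean of the 9 members were named by rank, over the 15 libraries and with no test. After Gm28386 (r = 0.89), which at a mean of 0.616 CPM lay near the floor of detection, they were 2010300C02Rik (0.88), Vwa3b (0.88), Slc26a10 (0.87), Capn3 (0.86), Mtmr12 (0.86), Orai2 (0.86), Glis3 (0.85), Abcg1 (0.84) and Mcur1 (0.84). The members' own r with this mean was 0.75 for Prox1, 0.70 for Lct and 0.63 for Dsp. It was 0.56 for Zbtb20, 0.51 for Cabp7, 0.48 for Tdo2 and 0.19 for C1ql2, and 0.04 to 0.05 for Wfs1 and Fibcd1. Of these genes 2010300C02Rik, at a mean of 262 CPM, had a log2 fold change of 0.28 (SE 0.0723) between treated and PBS-given transgenic mice and -0.33 between APP-PS1 and WT mice, with adjusted p values of 0.223 and 0.0556 in edgeR. The values for Slc26a10, an anion transporter family member, were 0.60 (SE 0.162) and -0.52.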

How the data were processed

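Poly(A) RNA was sequenced from stranded libraries, 1 per mouse, per the labels' protocols. The authors deposited raw counts, not normalized, for 46078 Ensembl genes in each of 15 libraries. The submitters' processing notes name Bowtie2 2.2.2 and HTSeq 0.11.2, with FastQC and DESeq2, and build GRCm38. Since Bowtie2 makes no spliced alignments, reads over exon junctions can be lost. Strand setting and annotation release were not given in the sources used here. HTSeq's summary lines name no gene and were left out. Per library, 20.0 to 25.9% of reads had no feature, 1.64 to 1.79% were ambiguous and 2.70 to 2.92% aligned at several places.

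Groups were taken from the labels, and animal numbers make each library a separate mouse. In all 30 pairs of libraries of a group the counts differed beyond sampling noise (7.95 to 39.8 chi-square units per degree of freedom), so none was taken for a duplicate. CPM were computed with TMM scaling. The test was edgeR's quasi-likelihood F test (version 4.0.16, R 4.3.3), two-sided, for 18974 genes that passed filterByExpr, in 1 model of group and labelled sex over all 15 libraries, with Benjamini-Hochberg adjustment over all genes tested and a threshold of 0.05. Standard errors come from the F statistic and 95% intervals from 11 residual degrees of freedom. Within animal numbers that begin with 83 or 85, differences are means of log2 CPM with a prior count of 2. Correlations used 100000 permutations in SciPy 1.17.1. The scripts were tested on simulated data.

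The members and lists were chosen with earlier results of these data known. No list was therefore tested, and no p of a fold change was adjusted over a list. Permutation p values of the correlations were adjusted over the 36 pairs of members, which were chosen in this way. Named genes are all 9 members, up to 4 genes of smallest p between treated and PBS-given transgenic mice from each further list, the 10 genes most like the members' mean, and Ttr, App and Xist; Calb1 and the overlapping genes were named after their values were seen. Alternatives were DESeq2 1.42.0, limma-voom (limma 3.58.1), other size factors, other filters, other sex terms, terms for the number series and for Ttr, the 2 groups alone, the libraries rich in Ttr left out, and each library left out in turn.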

Additional observations from a re-analysis of the deposited data

How the results depend on the processing

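The count of members past an adjusted p of 0.05 in edgeR was 0 in each comparison. Between transgenic and WT mice given PBS it was 2 with DESeq2, 2 without a filter on low counts and 2 with the 2 groups alone (Dsp and Lct each time), and 0 to 2 with single libraries left out. Between treated and PBS-given transgenic mice it was 3 with DESeq2 and 0 under the other alternatives, and between treated and WT mice it was 0 under all 26. The cause was not tested.

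Over all genes, the count between transgenic and WT mice was 195, and 361 with DESeq2 (280 higher, 81 lower), 115 without a sex term, 98 without the libraries rich in Ttr (all higher) and 145 to 253 with single libraries left out, the highest without APP-PS1 PBS replicate 4 (134 higher, 119 lower). Between treated and PBS-given transgenic mice it was 0 (2529 genes at an unadjusted p under 0.05), and 143 with DESeq2 (70 higher, 73 lower), 13 without a filter, 1 with the 2 groups alone and 0 to 3 with single libraries left out. Between treated and WT mice it was 369, and 199 without the libraries rich in Ttr, 221 with the 2 groups alone and 140 to 441 with single libraries left out, the lowest without anti-CD8a replicate 3.

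Signs of Lct, Tdo2, Dsp, Prox1, C1ql2 and Cabp7 held in all 26 alternatives in the first 2 comparisons. Between transgenic and WT mice, Zbtb20 was at -0.014 without a sex term and Wfs1 at 0.14 without the libraries rich in Ttr. Between treated and PBS-given transgenic mice, Fibcd1 was at -0.035 with Ttr as a term and -0.11 without the libraries rich in Ttr. Between treated and WT mice, Wfs1 was at 0.0060 with sex read from the genes, 0.018 with Ttr as a term, 0.14 without the libraries rich in Ttr and 0.0088 with the 2 groups alone. Fibcd1 was at 0.0098 in the last of these, Prox1 at -0.041 with Ttr as a term and -0.049 without the libraries rich in Ttr, and Dsp at 0.019 with Ttr as a term.

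With single libraries left out, log2 fold changes between transgenic and WT mice ran from -0.18 to 0.040 for Wfs1, -0.19 to 0.030 for Fibcd1 and -0.020 to 0.12 for Zbtb20. Between treated and PBS-given mice they ran from -0.023 to 0.15 for Wfs1 and -0.047 to 0.095 for Fibcd1. Between treated and WT mice they ran from -0.10 to 0.057 for Prox1, -0.22 to 0.079 for Dsp, -0.14 to 0.074 for C1ql2, -0.23 to 0.23 for Lct, -0.067 to 0.030 for Wfs1 and -0.16 to 0.028 for Fibcd1.

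No paired analysis was possible because no animal number is shared between groups and replicate numbers follow accession order. The dissected region and its share of dentate gyrus and CA1 cannot be told apart from the groups. With 5 mice per group, estimates near 0 keep intervals of about the size of the larger ones.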

Other observations

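Markers of immature neurons, which arise in the dentate gyrus of adult mice, had a lower estimate in treated than in PBS-given transgenic mice for 6 of the 7 tested, their median being -0.10 on the log2 scale and none past the edgeR test. Neurod1, a factor of granule cell maturation, was the exception at 0.22 (SE 0.0774), while Sox11, a factor of newborn neurons, was at -0.22 (SE 0.100). Their summed level was 102 to 134 CPM in treated mice, 115 to 127 CPM in PBS-given transgenic mice and 111 to 123 CPM in WT mice. Eomes was below the filter on low counts. Between transgenic and WT mice given PBS, the median was -0.02 with 4 of 7 lower.

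Among 10 striatal markers, 8 were lower in treated than in PBS-given transgenic mice (median -0.13, Tac1 at -0.36), and all 10 were lower in APP-PS1 than in WT mice given PBS (median -0.16). None passed the edgeR test in these comparisons, while DESeq2 called Penk lower in APP-PS1 than in WT mice (-0.52 on the log2 scale, DESeq2 adjusted p = 0.0121). Of 6 hypothalamic markers 3 were tested, and their median was 0.30 between treated and PBS-given transgenic mice, with sums of 1.65 to 4.65 CPM in treated mice, 1.32 to 2.87 CPM in PBS-given transgenic mice and 1.14 to 2.64 CPM in WT mice. For 8 thalamic markers the median was 0.12 and for 14 choroid plexus markers -1.87, which was -0.11 without the libraries rich in Ttr.

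Between treated and PBS-given transgenic mice, 4 markers each of other cell types had medians of -0.04 for astrocytes, 0.04 for oligodendrocytes, 0.17 for microglia and 0.002 for endothelial cells, none past the edgeR test. DESeq2 called Slc2a1, the glucose transporter of brain endothelium, lower in treated mice (-0.29, DESeq2 adjusted p = 0.0420). Between transgenic and WT mice given PBS, all 4 microglial markers had higher estimates (median 0.48), of which Csf1r (0.59, adjusted p = 0.00620) and Cx3cr1 (0.57, adjusted p = 0.0103) passed the edgeR test. The astrocyte water channel Aqp4 also passed (0.46, edgeR adjusted p = 0.0459), and the median of the 4 astrocyte markers was 0.10. Their part in the hippocampal marker differences was not tested. The microglial sum was 313 to 522 CPM in treated mice, 320 to 386 CPM in PBS-given transgenic mice and 234 to 269.7 CPM in WT mice.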
